A study of Mus musculus with 18 samples.

Results

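Round spermatids (RS) of wild-type (WT) mice are described here by the RNA in their 6 libraries, which are the WT libraries among the 18 of the series. They were chosen by their labels, and the level of every gene in the table was computed from them without a contrast to the other genotypes. The series also holds 6 libraries of RS that lack the RNA helicase GRTH (KO), the product of Ddx25, and 6 of RS that carry a mutant GRTH without its phosphorylated form (KI), and neither group is used below. All mice were 75 to 85 days old. RS were released from the seminiferous tubules with collagenase and trypsin, settled through a gradient of serum albumin and checked for purity by nuclear staining. Total RNA was made into strand-specific libraries with a low-input kit and no selection for polyA tails. RNAs without such tails can therefore be in the libraries beside mRNA. The methods do not say whether the kit removed ribosomal RNA, so the shares of RNA classes below are those of the libraries. The labels do not say which library came from which animal or how many animals a preparation held, so the spread between libraries and the p-values below may be partly technical.

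RS are the haploid cells that leave meiosis and have not yet begun to elongate. They build the acrosome over the nucleus, lay down the axoneme of the tail, and transcribe in advance many mRNAs that are stored and translated later, when the chromatin is packed with transition proteins and protamines and transcription stops. Spermatids are also known for testis forms of housekeeping proteins, often encoded by genes that arose as copies of somatic ones, and for a set of sex-linked genes that are active again after the silencing of meiosis.

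Levels are given as TPM (transcripts per 1000000): counts divided by the exon length of the gene and scaled to a sum of 1000000 in each library. Library depth, as gene counts, ranged from 20606738 to 26776555. Of 54232 genes, 20603 had over 3 counts in all 6 libraries, and 3 or fewer counts were taken as the floor, which lay between 0.112 and 0.146 CPM (counts per 1000000). Floors cover counting error only: PCR copies of a molecule were not told apart by molecular identifiers.

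The scale of TPM was set by a single short RNA. Gm23935, annotated as a miRNA gene of 57 bases at chr16:11144125-11144181 on the plus strand (GRCm38), took 718503 to 1282442 counts per library, which was between 3.12 and 5.81% of the counts but between 56.8 and 70.6% of the TPM. Its level was 633578 ± 58329 TPM (SD, n = 6). Of the 5 most abundant noncoding genes under 200 bases, another 3 have almost the same sequence, and all 4 are shown because 1 of them sets the scale and the others differ from it by few bases or none; capitals mark bases that differ from Gm23935, and positions are counted from 1 at the 5′ end of Gm23935.
Gm23935: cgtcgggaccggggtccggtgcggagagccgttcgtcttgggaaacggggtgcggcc
Gm24270: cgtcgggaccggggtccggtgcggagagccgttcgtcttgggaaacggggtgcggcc
Gm24187: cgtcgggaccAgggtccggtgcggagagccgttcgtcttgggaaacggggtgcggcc
Gm25911: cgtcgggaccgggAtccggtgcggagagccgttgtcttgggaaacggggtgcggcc

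The sequences are those of the GENCODE M21 transcripts. Gm24270 at chr9:56223715-56223771 (minus strand) is identical to Gm23935 and had 2747 ± 322 TPM. Gm24187 at chr13:9834469-9834525 (minus strand) carries the substitution G11A and had 1965 ± 182 TPM. Gm25911 at chr1:167340369-167340424 (minus strand) carries G14A, lacks the base at position 34 and had 2624 ± 917 TPM. The identical Gm23935 and Gm24270 share every 50-base stretch but were given very different counts, while every such stretch of Gm24187 and Gm25911 is unique in the annotation. Whether the reads came from these loci or from another copy of the sequence in the genome or in an abundant RNA was not tested, so the level of Gm23935 is that of a sequence and not of a locus. Over the genes of 200 bases or more alone, TPM would be larger by a factor of 2.44 to 3.60, lowest in WT 1 and highest in WT 3, with the order of genes within a library unchanged. Levels are therefore given over all genes, and where the spread between libraries matters the value over genes of 200 bases or more is given beside it.

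Protein-coding mRNA of nuclear genes held 77.7% ± 2.37 of the counts, mitochondrial rRNA 10.96% ± 1.36, small structured RNA and miRNA genes 5.10% ± 1.26, long noncoding RNA 4.12% ± 0.179, mitochondrial mRNA 1.098% ± 0.138 and pseudogenes 0.986% ± 0.0259 (SD, n = 6). By TPM the order was turned, since short genes weigh more: small RNA held 66.6% ± 5.66 and nuclear mRNA 21.8% ± 4.23. WT 1 and WT 2 had the largest shares of nuclear mRNA, and WT 4 the smallest.

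**Figure D1:**
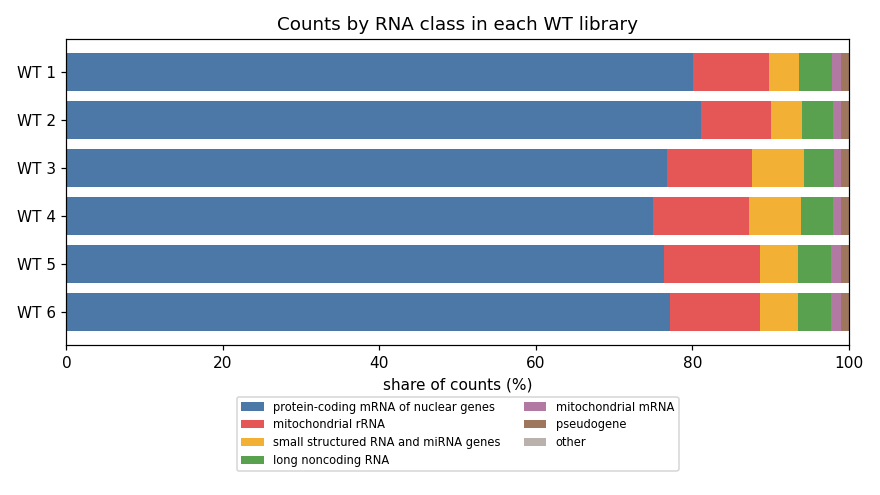
Share of counts (%, horizontal axis) by RNA class in the 6 WT libraries (vertical axis), each bar adding to 100%. Nuclear mRNA fills between 74.9 and 81.1% of every bar, and mitochondrial rRNA is second with 8.96 to 12.4%.

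A mean of 1 TPM or more was reached by 13558 genes, 10 TPM by 4319, 100 TPM by 411 and 1000 TPM by 20. Among 21970 nuclear protein-coding genes, 9276 reached 1 TPM, 3642 (16.6%) reached 10 TPM and 357 reached 100 TPM, and the median over all of them was 0.471 TPM.

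Markers of the labelled cell type and of other cells were taken from lists written with earlier results of these data known. All 20 markers of round spermatids and all 12 of elongated spermatids had a mean of 10 TPM or more, with medians of 94.1 and 317 TPM. The round spermatid list holds the leading mRNAs Prm1, Prm2, Tnp1 and Tnp2. Since both lists passed in full, they do not tell round from elongated spermatids. Of 18 spermatocyte markers, 12 reached 10 TPM, led by the synaptonemal complex genes Syce1 at 149 ± 66.6 TPM and Sycp2 at 72.8 ± 24.2 and by the meiotic cyclin Ccna1 at 71.5 ± 10.5 (SD, n = 6). How much of this RNA lies in spermatocytes and how much in RS cannot be told apart in bulk samples, in which fewer cells of a type and less RNA per cell give the same value.

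Markers of other cells were low. Of 20 spermatogonial markers only Dmrtb1 passed 10 TPM, at 112 ± 40.4, while Id4 had 5.75 ± 1.48, Uchl1 4.78 ± 0.616 and the stem cell gene Nanos2 at most 3 counts in any library. Of 18 Sertoli cell markers only the junction gene Tjp1 passed it, at 11.6 ± 3.14 TPM, and the FSH receptor Fshr had at most 3 counts. None of 12 Leydig cell markers passed it, with the hormone Insl3 at 3.03 ± 1.54 TPM, of which 61.8% of the 50-base stretches are also in the neighbouring Jak3, and the ferredoxin Fdx1 at 3.01 ± 0.462. The summed level of the Leydig markers was 7.33 to 16.5 TPM, that of the Sertoli markers 23.9 to 44.4 and that of the round spermatid markers 11844 to 21403.

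Of 12 peritubular myoid markers only Actg2, a smooth muscle actin, passed 10 TPM, at 133 ± 39.7, while the next, Mylk, had 5.72 ± 2.60 and Tagln 0.708 ± 0.277. The macrophage list was led by Apoe at 8.17 ± 1.79 TPM and C1qb at 2.18 ± 0.418, with 0 of 14 at 10 TPM. The endothelial list was led by Vwf at 0.549 ± 0.103 TPM and the red blood cell list by Hbb-bs at 0.702 ± 0.334, and 0 of 12 and 0 of 8 markers reached 1 TPM. Among red cell genes, 5 had at most 3 counts in any library, among them Hba-a2, Hbb-bt, Slc4a1 and Epb42, as did the endothelial gene Emcn and the Leydig gene Cyp2a4. Of the stretches of Hba-a2 10.7% are unique, of Hbb-bt 41.7% and of Hbb-bs 46.8%, so the globin levels are uncertain.

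**Figure D2:**
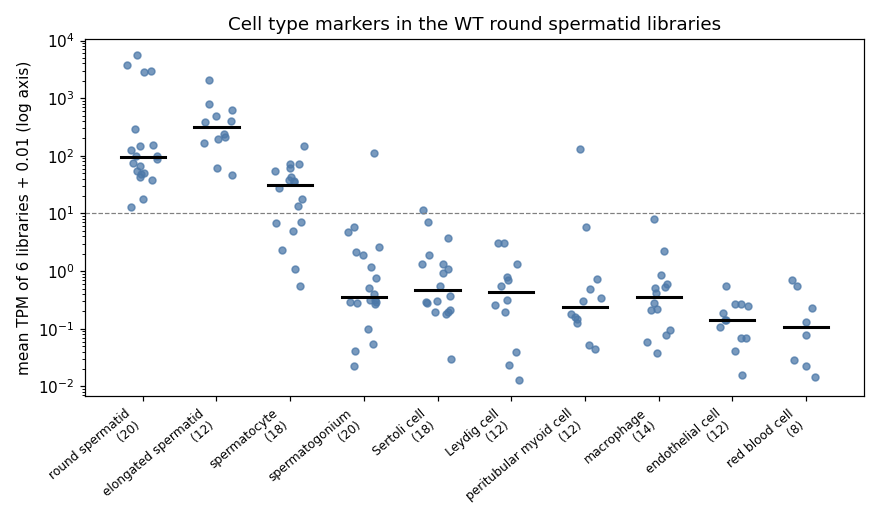
Mean TPM of 6 WT libraries plus 0.01 (vertical log axis) for each gene (point) of 10 marker lists, with the number of genes in brackets, the median of the list (bar) and 10 TPM (dashed line). Every spermatid marker lies above the dashed line, and outside the germ cell lists Actg2 and Tjp1 do.

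The most abundant mRNAs were those of nuclear condensation. Prm2, the protamine that is processed after it binds DNA, ranked first with a lowest, median and highest level of 3982, 5416 and 7254 TPM (5586 ± 1377). Tnp1, the transition protein that replaces histones before the protamines do, had 2659, 3709 and 5238 TPM (3788 ± 1025). Tnp2, the other transition protein, had 2033, 2732 and 4100 TPM (2940 ± 896), and Prm1 had 2179, 2739 and 3435 (2799 ± 543). On this scale WT 1 and WT 2 were highest and WT 4 lowest for each of these 4 genes, an order that depends on the scale. Over genes of 200 bases or more the same genes had 15959 ± 1914, 10760 ± 1260, 8325 ± 1312 and 8045 ± 605 TPM, so their relative SD was smaller on that scale.

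Prm1, Prm2, Prm3 and Tnp2 lie beside each other within chr16:10787936-10805839 (GRCm38), all on the minus strand, and 4 of the 11 most abundant mRNAs came from this interval. Prm3 ranked 11th at 796 ± 189 TPM. Tnp1 lies apart from them on chromosome 1.

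The mRNAs that follow belong to the tail and to metabolism. Smcp, a protein of the mitochondrial sheath of the sperm tail, had 1160, 2048 and 3013 TPM as its lowest, median and highest values. Dbil5, a testis acyl-CoA-binding protein, had 1169, 1637 and 2131 TPM. Ldhc, the lactate dehydrogenase of germ cells, had 968, 1208 and 1291 TPM. The values of Smcp covered the widest range of the 3 and those of Ldhc the narrowest. Over genes of 200 bases or more Smcp ran from 4119 to 7342 TPM, Dbil5 from 4046 to 5191 and Ldhc from 3146 to 3686.

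Further down came the sheath proteins Ropn1l (885 ± 172 TPM) and Akap4 (626 ± 131), the glutathione transferase Gstm5 (810 ± 195), the polyubiquitin gene Ubb (804 ± 52.2), the meiosis-expressed gene Meig1 (762 ± 262), the glycolytic mutase Pgam2 (703 ± 200) and the mRNA-binding protein Ybx2 (682 ± 216). The list of 20 is completed by Tcp11 (657 ± 224), Gm5617 (755 ± 105), Mea1 (688 ± 248), Cypt12 (666 ± 160) and Gsg1 (646 ± 96.3). Akap4, on the X chromosome, was the only sex-linked gene among the 20. Of the 50-base stretches of Ubb, 51.9% are found in no other gene of the annotation, so its level is less certain than the others.

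**Figure D3:**
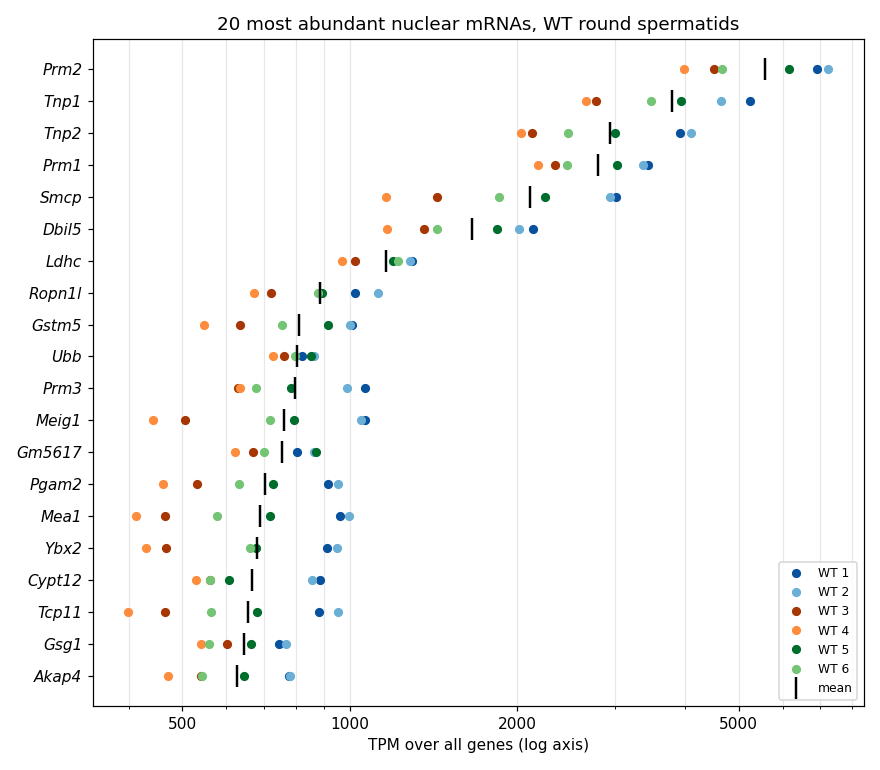
Level in TPM (horizontal log axis) of the 20 nuclear mRNAs with the highest mean (vertical axis) in each of the 6 WT libraries (coloured points), with the mean of the 6 (black mark). On this scale WT 1 and WT 2 lie to the right and WT 3 and WT 4 to the left for nearly every gene, for Prm2 at 6927 and 7254 TPM against 4522 and 3982.

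The mRNA pool was shared by many genes despite these levels. Of the summed TPM of nuclear mRNA, the 5 leading genes of a library held 7.83% ± 0.694, the 20 leading genes 13.6% ± 0.839 and the 100 leading genes 26.4% ± 1.17. Between 474 and 589 genes made up the first 50% and between 3730 and 4175 the first 90%. Ddx25, the gene removed in KO, was expressed at 51.6, 68.6 and 78.5 TPM (lowest, median and highest) and ranked 624th. Over genes of 200 bases or more it had 192 ± 5.55 TPM.

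Noncoding RNAs of 200 bases or more were led by both mitochondrial rRNAs, mt-Rnr1 of the small subunit (31610, 41729 and 46401 TPM) and mt-Rnr2 of the large subunit (28476, 35954 and 39017 TPM). Over genes of 200 bases or more they ran from 98454 to 129779 and from 85246 to 115346 TPM, and by share of counts mitochondrial rRNA was lowest in WT 2. Next came Rn7sk, the 7SK RNA that holds the elongation factor P-TEFb inactive, with 13280, 15804 and 16462 TPM, although 31.9% of its 50-base stretches are unique in the annotation. Among nuclear genes annotated as long noncoding RNA, Gm42418 had 2845 ± 187 TPM, Gm26917 1001 ± 118 and Malat1, a nuclear-retained RNA, 331 ± 89.5. Gm42418 and Gm26917 are neighbours on chromosome 17, within chr17:39843013-39848788. Of the stretches of Gm42418, 5.10% are unique and 94.9% are shared with CT010467.1. Whether the reads of Gm42418 and Gm26917 came from long noncoding RNA or from another abundant RNA was not tested.

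The other 4 of the 10 were Gm11837, antisense to Necab1, at 278 ± 70.4 TPM and the processed pseudogenes 1700019M22Rik (275 ± 140), BC106175 (261 ± 75.8) and 1700001J11Rik (243 ± 10.3). The values of 1700019M22Rik ran from 135 TPM in WT 4 to 472 in WT 1, where the factors to TPM over genes of 200 bases or more are 3.55 and 2.44. Those of 1700001J11Rik ran from 227 to 259, and from 589 to 862 over genes of 200 bases or more. Among 23 long noncoding RNAs of a list, 2 had 10 TPM or more, Malat1 and the imprinted antisense RNA Nespas (14.3 ± 4.52). Of all 12717 genes of the long noncoding class, 412 had 10 TPM or more. Tug1 had 5.26 ± 0.683 TPM and Snhg3 5.37 ± 1.04. Tsix, antisense to the X-inactivation RNA, was at the floor with at most 2 counts.

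Among 20 small structured RNAs of a list, 10 had 10 TPM or more, against 110 of all 6091 small structured RNA and miRNA genes. Behind Rn7sk came the retroposed RNA Bc1 at 542 ± 158 TPM and the Cajal body RNA Scarna2 at 94.7 ± 20.1. The signal recognition particle RNA Rn7s2 had 53.5 ± 11.4 TPM, with 0.0% of its stretches unique. Mir6236, of 123 bases, had 2465 ± 308 TPM and unique stretches throughout. Rprl1, Rprl3 and Rmrp had 0 counts in every library, which allows up to 3 counts each, and 4.30% of the stretches of Rmrp are unique.

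The genes for shaping the sperm head and tail were nearly all expressed. All 10 genes of the nuclear condensation list had 10 TPM or more, against 16.6% of nuclear protein-coding genes, and the lowest was the histone variant H2al2a at 64.9 ± 9.80. The list summed to 11970 to 21477 TPM per library. Of 22 acrosome genes, 21 reached 10 TPM, led by Pdcl2 (335 ± 157), Spata16 (129 ± 38.6), Dkkl1 (126 ± 41.0) and the zona-binding protein gene Zpbp2 (104 ± 31.3), and Spaca6, needed for fusion with the egg, was lowest at 3.34 ± 0.575. Of 21 genes of the outer dense fibres, fibrous sheath and mitochondrial sheath, 20 reached 10 TPM and 17 reached 100 TPM, with Rhpn1 lowest at 2.95 ± 1.14.

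All 22 genes found of an axoneme list had 10 TPM or more, led by Meig1, the radial spoke gene Rsph1 (438 ± 59.8) and the dynein heavy chain Dnah8 (169 ± 39.8). The lowest was the intraflagellar transport gene Ift20, at 12.6 ± 3.05 TPM. All 11 genes of the CatSper calcium channel had 10 TPM or more, between Catsper4 at 17.3 ± 9.998 and Catsperz at 287 ± 63.2. The auxiliary subunit Efcab9 had 160 ± 24.7 TPM and the pore subunit Catsper2 84.9 ± 21.4. Of 7 genes of the testis-specific serine kinases, 6 reached 10 TPM, with Tssk6 (153 ± 14.3), Tssk2 (146 ± 49.8), their substrate Tsks (133 ± 41.1) and Tssk3 (102 ± 18.3) ahead and Tssk5 lowest at 5.50 ± 1.03.

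Genes of RNA storage and of small RNA pathways were present at moderate levels. Of 16 genes of the chromatoid body and piRNA pathway, 14 had 10 TPM or more, led by Mael (417 ± 71.3), the helicase Ddx4 (237 ± 25.1), the scaffold Tdrd6 (157 ± 27.02) and Gtsf1 (130 ± 25.1). Tdrkh was lowest at 5.67 ± 0.941 TPM. Of 20 genes for mRNA storage and germline RNA-binding proteins, 14 reached 10 TPM. Ybx2 (682 ± 216), Ybx1 (348 ± 189), Pabpc1 (256 ± 90.04) and Ybx3 (253 ± 128) led them. On this scale the Y-box genes Ybx1 and Ybx3 varied widely, Ybx1 from 152 TPM in WT 4 to 598 in WT 2. Part of that range is the scale: the factor to TPM over genes of 200 bases or more is 3.55 in WT 4 and 2.49 in WT 2. Cpeb1, a regulator of cytoplasmic polyadenylation, was lowest at 0.358 ± 0.0545.

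Of 19 transcription regulators of spermatids, 14 had 10 TPM or more. The highest were Spz1 (415 ± 195), the HMG-box gene Hmgb4 (342 ± 164), the TBP-like factor Tbpl1 (91.7 ± 6.63) and Tcfl5 (82.9 ± 12.8), and Ovol1 was lowest at 1.75 ± 0.326. Hmgb4 ran from 179 to 543 TPM and Tbpl1 from 85.7 to 101, and over genes of 200 bases or more from 637 to 1352 and from 211 to 320.

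In the ubiquitin system, used for removing histones and cytoplasm, 20 of 24 genes had 10 TPM or more. Behind Ubb stood the ring finger ligases Rnf138 (193 ± 29.9 TPM) and Rnf133 (163 ± 33.7) and the cullin adaptor Klhl10 (158 ± 44.8), and Rnf8 was lowest at 1.08 ± 0.489. Of 21 chaperones, 19 reached 10 TPM, with the chaperonin subunit Tcp1 (593 ± 31.0), Hspa2 (556 ± 37.7), Odf1 (495 ± 124) and Hsp90aa1 (473 ± 70.5) at the top. The mitochondrial Hspd1 was lowest at 3.06 ± 0.625. Unique stretches made up 52.5% of Hsp90aa1 and 57.9% of Hspd1, against 86.1% of Tcp1 and 100% of Hspa2 and Odf1. The levels of Hsp90aa1 and Hspd1 are therefore less certain.

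In polyamine metabolism 5 of 12 genes had 10 TPM or more. The spermatid antizyme Oaz3 had 215 ± 22.7 TPM, ornithine decarboxylase Odc1 80.2 ± 14.8, the antizyme inhibitor Azin2 43.6 ± 4.20 and Oaz2 15.9 ± 0.921, while the X-linked acetyltransferase Sat1 had 0.0984 ± 0.0527. Of the stretches of Oaz3, 48.8% are unique, and most of the others are shared with Tdrkh. Of 77 cytosolic ribosomal protein genes, 64 had 10 TPM or more, with a median of 32.4 TPM and a sum of 3146 to 4376. Some of them share sequence with other genes: the unique share was 64.5% for Rpl29, 66.5% for Rpl10 and 73.7% for Rps27a, against 93.2% for Rpl39. Whether shared sequence changes the median or the sum was not tested.

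Testis forms were set against their somatic paralogs in 49 pairs by the log2 ratio of their TPM in each library, in which the scale of TPM cancels. The pairs were chosen with earlier results of these data known. The counts of pairs and the p-values below therefore describe these pairs and are no independent support for a rule about paralogs. The testis form was higher in all 6 libraries in 44 pairs, lower in all 6 in 4 pairs and in neither class in 1 pair. The median log2 ratio was 4.13, and 28 pairs differed by 10-fold or more and 11 by 100-fold or more in favour of the testis form. Several genes of the pairs share sequence, among them the testis forms Oxct2a (58.3% of stretches unique) and Zfy2 (59.8%). Somatic forms with shared sequence include Slc25a5 (66.2%), Rpl10 (66.5%), Cycs (73.9%) and Gapdh (74.9%). Whether reads lost to shared sequence change the ratios was not tested. The exact sign-flip permutation test over libraries (two-sided, not adjusted) gave p = 0.03125 for each of the 48 pairs with 1 direction, which is the smallest that 64 sign assignments allow. Libraries 1 and 2, 3 and 4, and 5 and 6 resemble each other (below), and with their 3 means in place of 6 libraries the smallest possible p of this exact test is 0.25.

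In energy metabolism the testis form led in 7 of 9 pairs. Pgk2, the autosomal phosphoglycerate kinase, had 206, 283 and 380 TPM (lowest, median and highest). Pgk1, its X-linked paralog, had 1.24, 2.20 and 2.42, a log2 ratio of 7.24 ± 0.184 (SD, n = 6). The libraries of Pgk1 and Pgk2 did not overlap, and 46.1% of the stretches of Pgk1 are unique, since retroposed copies share the rest.

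Gk2, a glycerol kinase without introns, had 287 to 301 TPM against 0.0524 to 0.115 for X-linked Gk, a log2 ratio of 11.83 ± 0.432. Gapdhs, the glyceraldehyde phosphate dehydrogenase bound to the fibrous sheath, had 399 ± 96.4 TPM against 2.08 ± 0.355 for Gapdh, a log2 ratio of 7.57 ± 0.223. Ldhc exceeded Ldha, which itself had 108 ± 25.3 TPM, by a log2 ratio of 3.46 ± 0.193. Pdha2 of pyruvate dehydrogenase had 61.9 ± 4.05 TPM against 0.132 ± 0.0693 for X-linked Pdha1, which had between 5 and 20 counts.

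Acsbg2 (83.5 ± 36.4 TPM against 1.105 ± 0.159 for Acsbg1) and Oxct2a (99.4 ± 7.40 against 13.1 ± 2.92 for Oxct1) were also higher. The 2 enzymes with the reverse order were Aldoart1 (43.1 ± 17.99 TPM) against Aldoa (59.7 ± 16.8), with a log2 ratio of -0.52 ± 0.209, and Eno4 (17.4 ± 5.60) against Eno1 (34.5 ± 9.08), with -1.01 ± 0.213.

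All 6 mitochondrial pairs had the testis form higher. Cox7b2 had 146 ± 23.3 TPM against 0.473 ± 0.165 for X-linked Cox7b, and Cox8c 249 ± 34.2 against 4.82 ± 0.278 for Cox8a, log2 ratios of 8.32 ± 0.581 and 5.68 ± 0.178. Cyct, the testis cytochrome c, had 65.7 ± 5.79 TPM against 1.88 ± 0.381 for Cycs. Tomm20l (112 ± 12.3), Cox6b2 (48.5 ± 3.91) and the nucleotide carrier Slc25a31 (10.6 ± 1.69) exceeded Tomm20 (6.41 ± 0.261), Cox6b1 (3.87 ± 0.827) and Slc25a5 (1.15 ± 0.183).

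In the cytoskeleton all 6 pairs had the testis form higher. Tppp2 showed the largest log2 ratio of all pairs, 11.89 ± 0.596, with 256 ± 71.2 TPM, but Tppp had only 4 to 12 counts per library, so the size of that ratio is imprecise. Tuba3a had 601 ± 61.7 TPM against 0.928 ± 0.274 for Tuba1a, a log2 ratio of 9.39 ± 0.516, with 64.7 and 24.5% of their stretches unique. Actl7b (469 ± 64.9) stood against Actb at 166 ± 14.3, the highest somatic form of this group, and Actl7b shares 90.6% of its stretches with Gm26657. Cetn1 (280 ± 84.8), Capza3 (67.8 ± 17.03) and Pfn4 (42.3 ± 5.19) exceeded Cetn2 (3.25 ± 0.326), Capza2 (3.35 ± 0.450) and Pfn1 (8.01 ± 0.926).

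Translation held the pairs with the most abundant somatic forms. Rpl10l had 201, 232 and 274 TPM (lowest, median and highest) against 1.26, 1.47 and 1.90 for X-linked Rpl10, a log2 ratio of 7.26 ± 0.365, and Rpl39l had 84.2 ± 11.3 against 0.193 ± 0.0896 for Rpl39, which had 3 to 14 counts. Oaz3 exceeded Oaz1 (9.21 ± 0.870) by a log2 ratio of 4.54 ± 0.149. Ybx2 exceeded Ybx1 by 1.097 ± 0.356, at log2 ratios of 0.666 to 1.497. Pabpc2 (346 ± 33.7) exceeded Pabpc1 (256 ± 90.04) by 0.50 ± 0.396, but this order turned to -0.66 when the longest transcript of each gene replaced its exon length.

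In RNA processing, Rbmxl2 (47.9 ± 4.93 TPM) and D1Pas1 (50.7 ± 14.2) exceeded X-linked Rbmx (0.779 ± 0.135) and Ddx3x (1.102 ± 0.229) by log2 ratios of 5.95 and 5.50, and Papolb (133 ± 52.7), a cytoplasmic polyA polymerase, exceeded Papola (16.2 ± 3.398) by 2.96. Cstf2t and X-linked Cstf2, subunits of the cleavage stimulation factor, were the pair without 1 direction, at 7.99 ± 1.90 and 5.84 ± 1.57 TPM. Their log2 ratio was below 0 in WT 1 and WT 2 and above 0 in the other 4 libraries (0.46 ± 0.664, exact sign-flip permutation p = 0.15625).

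Among transcription and chromatin pairs, 6 of 7 had the testis form higher, including Gtf2a1l (154 ± 20.3 TPM against 8.11 ± 1.63 for Gtf2a1) at a log2 ratio of 4.26 and Zfy2 (2.54 ± 0.849 against 0.843 ± 0.114 for Zfx) at 1.54. Tbpl1 exceeded Tbp (17.8 ± 1.29) by 2.37 ± 0.0738, the narrowest spread of all pairs. Taf7l (17.3 ± 2.38) exceeded Taf7 (5.46 ± 0.386), and the testis linker histone Hist1h1t (90.2 ± 32.0) exceeded Hist1h1c (10.7 ± 1.95). Ctcfl, the paralog of the insulator protein gene Ctcf, was the lowest testis form at 0.231 ± 0.0560 TPM against 7.16 ± 2.12, a log2 ratio of -4.93 ± 0.661.

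In protein folding and turnover 6 of 7 pairs had the testis form higher, including Hspa1l against Hspa8 (196 ± 66.3 and 12.8 ± 1.83 TPM), Psma8 against Psma7 (28.7 ± 5.26 and 1.42 ± 0.293), Cct6b against Cct6a (110 ± 25.9 and 19.8 ± 2.37) and Clgn against Canx (144 ± 50.4 and 39.9 ± 5.54). Of the stretches of Hspa1l 28.6% are unique, and of those of Hspa8 60.6%. Pdilt exceeded P4hb by log2 ratios over 3 in WT 1 and WT 2 and under 2 in the other 4 libraries. Calr3 was lower than Calr, at 43.9 ± 6.38 against 104 ± 22.9 TPM and a log2 ratio of -1.23 ± 0.258.

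The 5 signalling and transport pairs all had the testis form higher. Txndc2 (101 ± 49.8 TPM) exceeded Txn1 (0.576 ± 0.169) by a log2 ratio of 7.36. Ppp3r2 (80.9 ± 17.5), Txnrd3 (195 ± 15.1) and Ppp3cc (61.7 ± 3.31) exceeded Ppp3r1 (1.85 ± 0.404), Txnrd1 (6.42 ± 0.822) and Ppp3ca (6.70 ± 1.55).

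The pairs can be described by 2 further features, and whether these played a part in the choice of pairs is not recorded. In 12 pairs the somatic form lies on the X chromosome; their median log2 ratio was 6.80, with a median somatic level of 0.972 TPM, against 3.46 and 7.16 TPM in the 37 pairs with an autosomal somatic form. In 13 pairs the testis form has a single exon in the annotation, and their median log2 ratio was 3.04, against 4.20 in the other 36. These differences between groups of pairs were not tested.

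**Figure D4:**
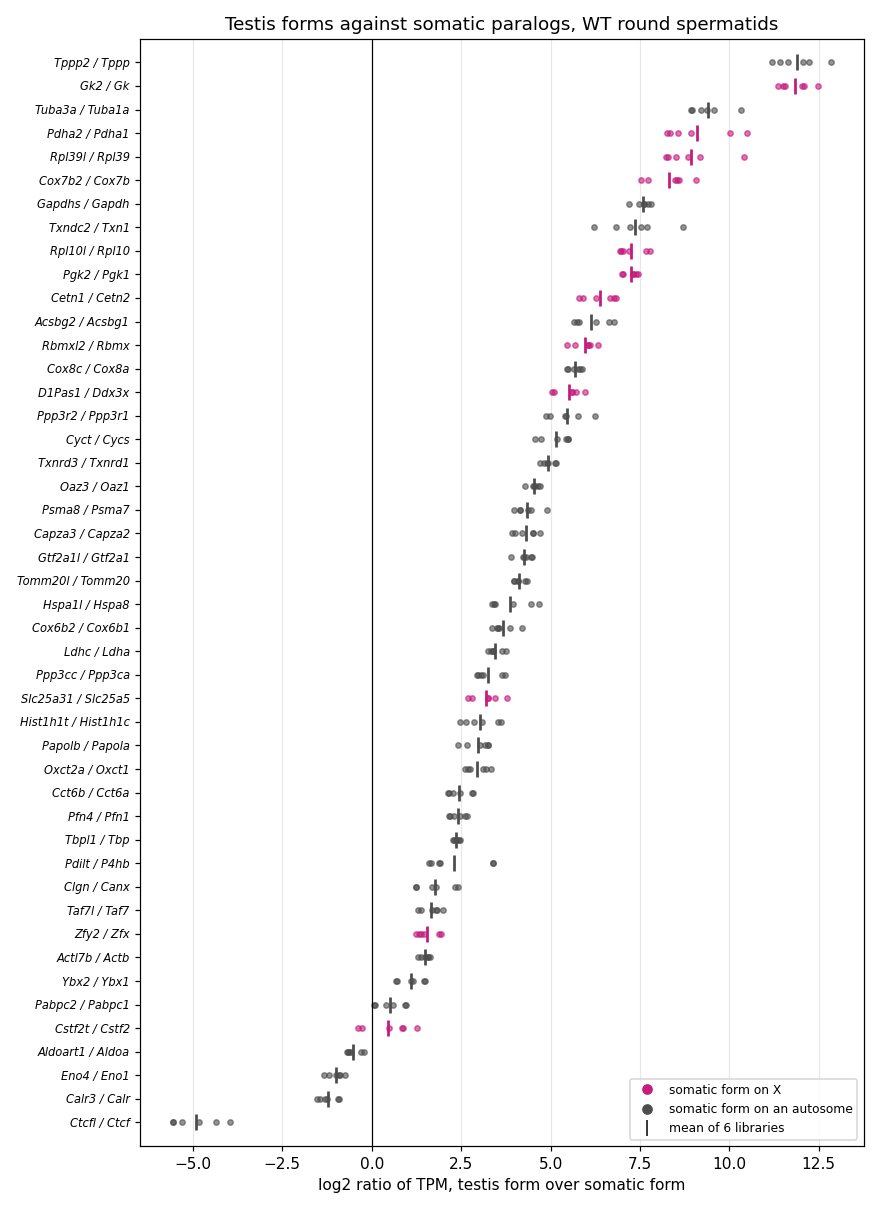
Log2 ratio of TPM, testis form over somatic form (horizontal axis), for 46 of the 49 pairs (vertical axis) in each of the 6 WT libraries (points) with their mean (mark), coloured by whether the somatic gene lies on the X chromosome. In 41 pairs all points lie right of 0, in 4 pairs all lie left of it, and Cstf2t/Cstf2 straddles it.

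Promoter windows of 250 bases before to 50 bases after the start were available from RefSeq (GRCm38.p6) for 36 of the testis forms, 41 of the somatic forms and all 20 leading mRNAs. The full cAMP response element TGACGTCA, the palindrome that binds factors of the CREB and CREM family, was in 0 of 41 windows of testis forms, 0 of 33 windows of the leading mRNAs, 2 of 50 windows of somatic forms (4%) and 1.79% of all 32851 windows. The shorter TGACGT on either strand, which includes every full element, was in 7.32% of the windows of testis forms, 9.09% of those of the leading mRNAs, 10 of 50 windows of somatic forms and 7.51% of all windows. A lack of these letters says nothing of other forms of the site. The median ratio of observed to expected CpG was 0.538 for windows of testis forms, 0.645 for the leading mRNAs, 0.770 for somatic forms, 0.384 for all windows and 0.588 for the 20141 windows of nuclear protein-coding genes, of which 2.31% held the full element and 8.73% the shorter one.

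Both full elements are shown with 11 bases on either side, on the strand of the gene, with the element in capitals. That of Ldha lies at chr7:46845781-46845810 (plus strand), where it begins 12 bases before the start, and that of Cycs at chr6:50566720-50566749 (minus strand), where it begins 169 bases before the start.
Ldha: ggctcccactcTGACGTCAgcgcggagctt
Cycs: aggccagagggTGACGTCAcgcacgtccac

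The sex chromosomes stood below the autosomes. Per library, 28.1% ± 1.47 of the 948 protein-coding genes on X had 1 TPM or more, against 43.0% ± 1.99 of the 20762 on autosomes, and the libraries did not overlap (26.4 to 30.0% against 40.2 to 45.0%). On Y 42 of 183 genes had a mean of 1 TPM or more. Over genes at 1 TPM or more the median level on X was 0.624 ± 0.0703 times the autosomal one (0.537 to 0.738, n = 6). By mean level, the median over X genes at 1 TPM or more was 4.10 TPM, under the range of the single autosomes (5.38 to 8.16 TPM). The ratio is a description over genes and depends on the limit, at 0.712 ± 0.0629 for genes at 5 TPM or more. Some sex-linked genes have few unique stretches (below). Whether reads lost to shared sequence lower the shares and levels of X and Y was not tested.

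X held 3 genes at 100 TPM or more, 0.316% of its genes against 0.998 to 3.06% on single autosomes. Of 26 sex-linked genes of a spermatid list, 6 had 10 TPM or more (23.1%, against 16.6% of nuclear protein-coding genes) and 15 had 1 TPM or more, with a median of 1.72 TPM. They were led by the cysteine-rich perinuclear theca genes Cypt1 (75.8 ± 11.5 TPM), Cypt3 (51.8 ± 9.72) and Cypt2 (28.3 ± 11.7) and by Cylc1 (35.5 ± 14.6), a protein of the sperm head cytoskeleton. The multicopy gene Ott had 0 counts in every library, and 0.0% of its stretches are unique. The same held for Ssty1 on Y. The unique share was 3.8% for Ssty2, 21.1% for Slxl1, 31.1% for Sly and 41.0% for Slx. It was 96.9% for Cypt3 and 97.2% for Cypt2, so the limit does not hold for every gene of the list.

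The libraries fell into 3 pairs. Over 10923 genes with a mean of 100 counts or more, the SD of the log2 ratio of normalized counts was 0.15 between WT 1 and WT 2, 0.20 between WT 3 and WT 4 and 0.20 between WT 5 and WT 6, and lay between 0.36 and 0.48 for the other 12 pairings. Between 0 and 3 genes differed by over 2-fold within these pairs and between 91 and 382 in the other pairings. Counting error alone gives a median of 0.0815 to 0.0886 per gene, and the chi-square per degree of freedom between counts was 5.01 or more in every pairing, so no 2 files agreed within sampling noise. That does not show that the close pairs come from separate animals or preparations, and n = 6 counts libraries. What the paired libraries share is not in the labels, and it was not tested.

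**Figure D5:**
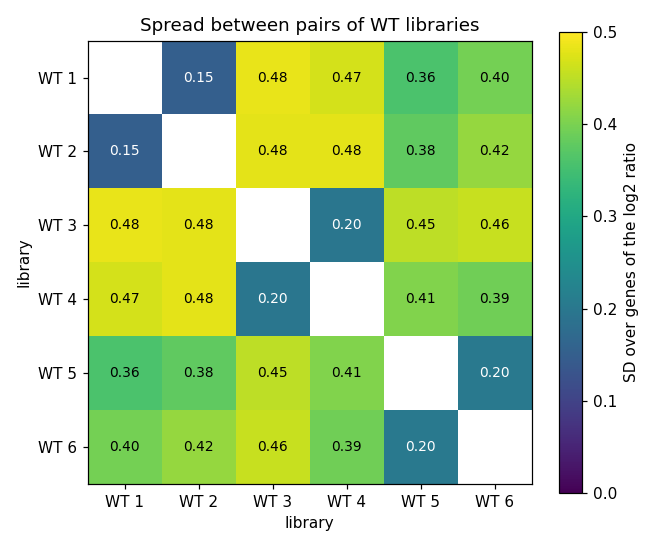
SD over 10923 genes of the log2 ratio of normalized counts for each pairing of the 6 WT libraries (both axes), from 0 (dark) to 0.5 (light). The cells of WT 1 with 2, WT 3 with 4 and WT 5 with 6 hold 0.15, 0.20 and 0.20, and all others 0.36 or more.

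The median biological coefficient of variation between the libraries was 0.186 over the 20603 genes past the floor. In log2 TPM the median SD was 0.313 over 4229 genes with 10 TPM and 100 counts or more, and 0.233 with TPM over genes of 200 bases or more.

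The widest spreads followed the pairs of libraries. Gm8210, a processed pseudogene with 0.0% unique stretches, had 0.322 to 0.650 TPM in WT 1 to WT 4 and 61.3 and 68.0 TPM in WT 6 and WT 5 (SD of log2 TPM 3.66). Rpl29, a ribosomal protein gene with 64.5% unique stretches, went the other way, with 94.6 to 143 TPM in WT 1 to WT 4 and 9.41 and 10.3 in WT 5 and WT 6 (1.87). The snRNA gene Gm25939, with 41.5% unique stretches, had 107 to 206 TPM in WT 1 to WT 4 against 9.14 and 9.57 in WT 5 and WT 6 (2.09). Fam205a1 had 14.3 to 15.3 TPM against 2.18 and 2.40 in the same libraries (1.39), with 29.1% unique stretches.

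Other genes set WT 1 and WT 2 apart. Cfap58, a flagellar protein gene, had 49.4 and 57.5 TPM there and 9.36 to 18.5 in the rest (SD of log2 TPM 1.11), and the pseudogene Gm4275 26.9 and 29.4 against 5.68 to 8.97 (1.07). The vault RNA Vaultrc5 ran from 9.15 TPM in WT 4 to 94.5 in WT 1 (1.29). Gm18795 (1.26) and Gm553 (1.09) were highest in WT 5 and WT 6, at 23.6 and 24.02 TPM and at 24.2 and 19.6. The pseudogene Ppp1r2-ps1 (1.15) was highest in WT 1 and WT 2, at 24.1 and 24.2. The unique share was 8.8% for Ppp1r2-ps1, 87.3% for Gm18795 and 96.2% for Gm553. Of these 10 genes, 8 were also among the 10 widest with TPM over genes of 200 bases or more.

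Among the 5 narrowest spreads in log2 TPM were those of Morn5 (126 to 131 TPM, SD 0.0217), Gk2 (287 to 301), Pam16 (25.4 to 26.9) and Zfp944 (14.4 to 15.1). This steadiness belongs to the scale: with TPM over genes of 200 bases or more the SD of log2 of the 5 genes reached 0.271, and 0 of them stayed among the 5 narrowest.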

How the data were processed

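The 6 WT libraries of 18 were grouped by their labels. The authors trimmed reads with cutadapt 3.4, aligned them to mm10 (GRCm38) with STAR 2.7.8a and deposited raw read counts per gene from the strand-specific mode of featureCounts (Subread 2.0.1), with the exon length of each gene, per the submitters' processing notes, the paper's methods and the file header. Symbols came from GENCODE M21 for 54165 of 54232 genes.

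TPM was computed from the counts and exon length. Values are mean ± SD over 6 libraries. Pairs of genes were compared by an exact sign-flip permutation test, two-sided and unadjusted. Spread was estimated with edgeR 4.0.16 (TMM factors, intercept only), checked on simulated data, and with DESeq2 1.42.0 as an alternative (R 4.3.3, Python 3.11.15). The uniqueness of a gene is the share of its 50-base stretches found in no other gene of the annotation, on either strand. Genes that overlap at 1 place, also on opposite strands, count as sharing, while the counts are strand-specific. A low share therefore need not mean lost reads. Named genes were the 20 highest nuclear mRNAs, the 10 highest noncoding RNAs of 200 bases or more and the 5 below that length, both genes of each pair, the 4 highest members and the lowest of each list, the 3 highest markers and those with 3 or fewer counts in every library, the 10 widest and 5 narrowest genes by spread, and Ddx25. Ssty1, Ssty2, Slxl1, Sly and Slx were named for their shared sequence. The lists, pairs and rules were chosen with earlier results of these data known. Totals of 20606738 to 26776555 counts set a floor of 3 counts per library. Alternatives changed gene length, the denominator of TPM, the scaling, the filter and the libraries. KO and KI were not used here, and the values of a few listed genes are not reported here.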

Additional observations from a re-analysis of the deposited data

Results flagged for a closer look

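Of 319 sets of 6 library values, 11 (3.45%) held a library whose gap to the nearest other exceeded 0.625 of the whole range. For independent normal values chance gives about 1 in 20. These libraries form close pairs and some sets share genes, so that rate need not hold here. WT 6 was the high library in 6 of the 11. Hist1h1t had 151.8 TPM there against a median of 80.9, Cyp17a1 2.79 against 1.03, and the summed Leydig cell markers 16.5 against 9.41. Oaz2 had 17.7 TPM in WT 6 against a median of 15.6, and Cox8a 5.37 against 4.75. Nanos2 had 0.0780 TPM in WT 6 from 3 counts and 0 in the other libraries.

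WT 4 was low for Gk2, at 287 TPM against a median of 300.4. It was the only library with counts for Tsix (0.0103 TPM, 2 counts) and Cyp2a4 (0.0179 TPM, 1 count), both within the floor. WT 5 was low for Pdha2, at 54.1 TPM against 62.5. WT 2 was low for Gm25911, at 791 TPM against 2894. Part of this rests on the scale. With TPM over genes of 200 bases or more, WT 6 stayed the high library for Hist1h1t (428 TPM) and Cyp17a1 (7.88 TPM), but Oaz2 and Cox8a were highest in WT 4 and WT 3 (56.2 and 17.3 TPM), Gk2 was lowest in WT 1 (725 TPM) and Pdha2 was as low in WT 1 as in WT 5 (151 TPM). The causes were not tested.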

How the results depend on the processing

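Of 106 alternative values for the main results, 100 stayed within set limits. The limits were the SD between libraries, 1.5 times for counts and a smaller factor for the biological coefficient of variation. Many of the 100 could not fail. Leaving out 1 of 6 libraries cannot move a mean by that SD. The class shares and X to autosome ratios with 1 library left out are therefore no check. TPM over genes of 200 bases or more, an alternative chosen after seeing the data, gave 1470 genes at 100 TPM or more against 411, a median SD of log2 TPM of 0.233 against 0.313, and an X to autosome ratio of 0.552. That ratio was 0.529 with the longest transcript and 0.712 over genes at 5 TPM or more, and 0.601 to 0.641 with 1 library left out. Without a filter on low counts the median biological coefficient of variation was 0.279, against 0.200 with DESeq2 and 0.178 to 0.193 with 1 library left out. With the longest transcript, the log2 ratio of Pabpc2 over Pabpc1 became -0.66 in place of 0.50, which left 43 pairs higher and 5 lower, and that of Cstf2t over Cstf2, without 1 direction in either case, became -0.0024, and 14 of the 20 leading mRNAs stayed among the 20. Under the other alternatives 18 to 20 stayed. With over 10 counts required for both genes, 39 of 44 pairs were higher and 4 lower. Requiring more counts, leaving out 1 library or averaging the close pairs cannot change the direction of a pair with 1 direction in all 6. The pairs found then, 44 and 4 without the count limit, are therefore no check. With 5 libraries no exact permutation p under 0.0625 is possible. No paired analysis was possible because only the WT group was used, and its replicate numbers pair it with no group compared here. Levels near the floor and genes with shared sequence are the least certain values.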

Other observations

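The genes of mitochondrial DNA covered a wide range of levels, and the genes below were chosen after their values were seen. mt-Co1, a subunit of cytochrome oxidase, had 2562 ± 455 TPM and mt-Cytb, of complex III, 1472 ± 409 (SD, n = 6). The other cytochrome oxidase subunits were listed far lower, mt-Co2 at 3.33 ± 0.744 TPM and mt-Co3 at 1.92 ± 0.467. The ATP synthase gene mt-Atp6 had 2.78 ± 0.342 TPM and mt-Nd4l of complex I 1.58 ± 0.400. Of the 50-base stretches of mt-Cytb 100% are found in no other gene, against 48.9% for mt-Co1, 0.0% for mt-Co2, 0.1% for mt-Co3, 0.5% for mt-Atp6 and 1.2% for mt-Nd4l. The rest of mt-Co2 is mainly shared with the annotated gene Gm28661 and that of mt-Co3 with Gm28437. mt-Nd3 of complex I lay between these groups, at 46.9 ± 11.1 TPM, with 2.0% of its stretches unique. mt-Atp8 was low, at 2.62 ± 1.18 TPM from 8 to 21 counts, with 100% of its stretches in no other annotated gene. Copies in the genome outside annotated genes were not searched, so this share does not show that its reads match only 1 place. The part of shared sequence in these levels was not tested.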
